A study of Mus musculus with 4 samples.

Results

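The genes described here are 10 enzymes that oxidise alcohols and aldehydes or break down hydrogen peroxide: the alcohol dehydrogenases Adh1, Adh4, Adh5 and Adh7, the aldehyde dehydrogenases Aldh1a1, Aldh1a7, Aldh1b1, Aldh2 and Aldh3a2, and catalase, Cat. They were chosen by name, with earlier results of these data known, and all 10 were found once among the 50584 gene symbols of the count tables. Poly(A)-selected liver RNA was sequenced from 2 DBA/2J and 2 C57BL/6J mice, and the comparison asks which of these genes differ in mRNA level between the strains. Every mouse was a 14-week-old male on a chow diet, labelled wild type, and the labels name no treatment. Both strains are inbred, so a group stands for 1 genome each, and whole liver was used, so the values mix hepatocytes with the other cells of the organ, and fewer cells of a type cannot be told apart from less RNA per cell.

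Ethanol is oxidised in the liver to acetaldehyde by alcohol dehydrogenases in the cytosol, with smaller routes through cytochrome P450 2E1 in the endoplasmic reticulum and catalase in the peroxisome. Acetaldehyde is then oxidised to acetate, mainly by ALDH2 in mitochondria, and acetate is activated to acetyl-CoA. The same enzyme families act on retinol and retinal, on formaldehyde and on aldehydes from fatty acids and lipid peroxidation, and DBA/2J and C57BL/6J are widely used as strains that avoid and drink alcohol.

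Between 48096706 and 52520737 counts per library were assigned to genes, of which albumin took 5.91% to 6.82%. The C57BL/6J replicates differed from each other by more than the DBA/2J replicates, as the chi-square over genes divided by its degrees of freedom was 82.1 and 20.3. A summed level of 10 acute phase genes, liver genes induced by inflammation, was 13696, 11653, 28024 and 15520 CPM, so C57BL/6J replicate 1 stood apart. CPM are counts-per-million after TMM scaling of the libraries, and every set of 4 values has first DBA/2J replicate 1, then DBA/2J replicate 2, then C57BL/6J replicate 1 and last C57BL/6J replicate 2.

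Of the 10 enzymes, Adh4 and Aldh1a1 were higher in DBA/2J, by 1.80-fold and 1.52-fold, and the other 8 did not pass the test in either direction (quasi-likelihood F test of edgeR, with a Benjamini-Hochberg threshold of 0.05). Of all 15647 genes tested, 18.2% were called, 9.29% with the higher level in DBA/2J and 8.87% with the lower, so 2 of 10 is near the background. DESeq2 called 3 of the 10 higher (Adh4, Aldh1a1 and Cat) and 2 lower (Adh1 and Aldh3a2), where it called 21.1% of all genes. The median log2 difference, DBA/2J over C57BL/6J, was -0.12 over the 10 genes and 0.01 over all genes tested. The libraries of the strains did not overlap for 7 of the 10, with 3 higher and 4 lower in DBA/2J. That share is also near the background, since 63.8% of all tested genes had libraries that did not overlap, 32.5% higher and 31.2% lower in DBA/2J. The 4 genes that were lower in both DBA/2J libraries without passing the test were Adh1, Adh5, Adh7 and Aldh3a2.

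**Figure D1:**
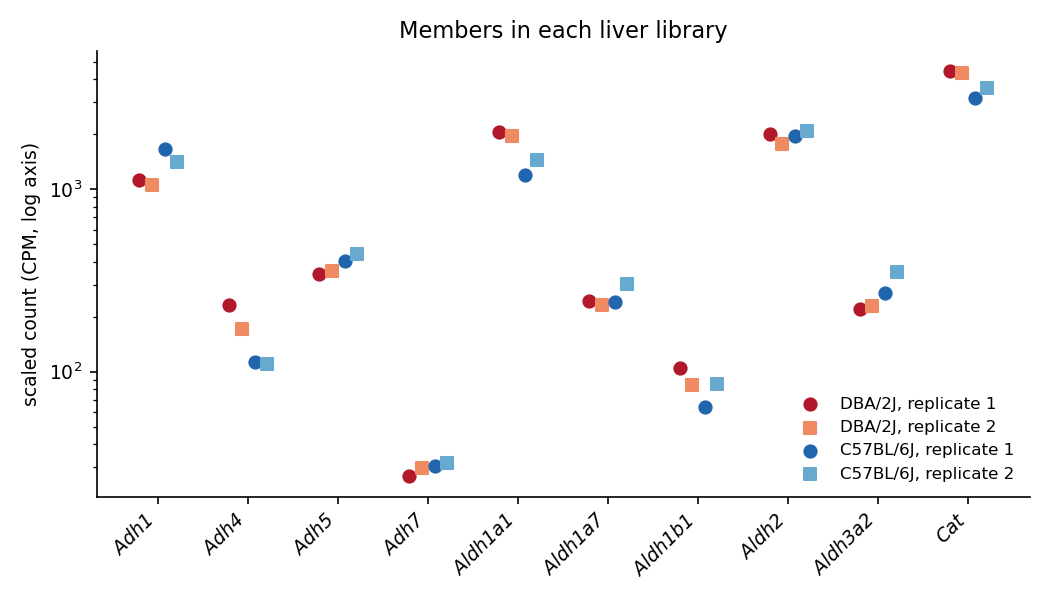
Scaled counts (CPM, log axis) of the 10 enzymes, 1 point per liver library. The DBA/2J points of Adh4 (232 and 171 CPM) and Aldh1a1 (2056 and 1962 CPM) lie above both C57BL/6J points, and those of Adh1 (1118 and 1055 CPM) lie below.

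Adh4 encodes the class II alcohol dehydrogenase, which oxidises ethanol with a lower affinity than class I and also acts on retinol. It lies on the plus strand at chr3:138415466-138430892 (GRCm38). Its counts were 11211, 9475, 5505 and 5529, or 232, 171, 113 and 111 CPM. Both DBA/2J libraries were above both C57BL/6J libraries, and the DBA/2J pair differed more than the C57BL/6J pair. The means were 202 ± 43.2 CPM in DBA/2J and 112 ± 1.54 in C57BL/6J (SD, n = 2 each), a log2 difference of 0.85 ± 0.15 (SE) with a 95% interval of 0.48 to 1.23. The edgeR adjusted p was 0.018. Without DBA/2J replicate 1, the higher of the pair, the difference was 0.60 and the call was lost, as were most calls over all genes.

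The sequence just before the Adh4 start is shown because Adh4 had the largest difference of the 10 genes. It is the plus strand of chr3:138415297-138415516 (RefSeq, GRCm38), running from 200 bases before the start through its first 20 bases, in the C57BL/6J-derived reference. The start is that of RefSeq, at 138415497. The counted span of Adh4 begins before it, at 138415466, so that the last bases before the start, with the match at -11, lie within that span.
Adh4: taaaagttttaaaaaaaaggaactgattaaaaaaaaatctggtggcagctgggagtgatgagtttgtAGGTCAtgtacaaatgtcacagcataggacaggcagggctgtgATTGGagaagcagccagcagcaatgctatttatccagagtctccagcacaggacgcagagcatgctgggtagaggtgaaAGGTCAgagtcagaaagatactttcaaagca
Capitals mark AGGTCA, the half-site letters read by many nuclear receptors, at -133 and -11 from the start, and ATTGG at -90, which is CCAAT on the other strand. AGGTCA on either strand was present in 16.3% of 32851 promoter windows of 300 bases, and CCAAT in 37.4%. Among the 9 genes with an entry in the promoter table, AGGTCA was also found in the window of Cat. These are matches of letters in the reference, and no DBA/2J sequence was read.

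Adh1 encodes the class I alcohol dehydrogenase, the main ethanol-oxidising enzyme of mouse liver cytosol (chr3:138260991-138290698, plus strand). It had 53947, 58334, 81005 and 70521 counts, or 1118, 1055, 1662 and 1413 CPM. Both DBA/2J libraries were lower than both C57BL/6J libraries, with means of 1086 ± 45.1 and 1538 ± 176 CPM. The log2 difference of -0.50 ± 0.14 had a 95% interval of -0.84 to -0.16 and did not pass the test over all genes (edgeR adjusted p = 0.0587). DESeq2 called it at -0.51 (adjusted p = 0.00145), and the edgeR difference without C57BL/6J replicate 2 was -0.615. Exons of Gm16559 on the other strand overlap 136 bases of the Adh1 exons (6.09%), and that gene had 190 to 367 counts.

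Adh5 encodes the class III enzyme, which oxidises the glutathione adduct of formaldehyde and is made in nearly every tissue (chr3:138443093-138455499, plus strand). It had 16567, 19578, 19624 and 21918 counts, or 343, 354, 403 and 439 CPM. Both DBA/2J libraries were below both C57BL/6J libraries. The log2 difference was -0.27 ± 0.09 (95% interval -0.50 to -0.04, edgeR adjusted p = 0.0977). It was called without C57BL/6J replicate 1 (-0.34, adjusted p = 0.0444).

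Adh7 encodes the class IV enzyme, known for retinol and ethanol oxidation in stomach and other epithelia (chr3:138217760-138233382, plus strand). Liver libraries held 1288, 1635, 1492 and 1572 counts of it, or 26.7, 29.6, 30.6 and 31.5 CPM. The 4 values were close, although both DBA/2J values were the lower ones, and the log2 difference was -0.14 with a 95% interval of -0.38 to 0.09 (edgeR adjusted p = 0.336). The 5 stomach markers summed to 1.37, 0.777, 1.44 and 1.80 CPM. Of these, Atp4a had 57, 30, 63 and 80 counts and Tff1 9, 13, 7 and 8, Muc5ac had 2 counts in C57BL/6J replicate 2 and 0 elsewhere, and Gkn1 and Gkn2 were at 0 in each of the 4 libraries, where a count of 3 would be 0.0542 to 0.0622 CPM. Their part in the Adh7 level was not tested. Reads were counted without regard to strand, and 108 bases of the Adh7 exons (2.85%) overlap exons of 0610031O16Rik on the other strand, which had 1715, 2157, 1645 and 1821 counts.

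The 4 alcohol dehydrogenases lie in 1 block of 237.7 kb on chromosome 3, and Adh4 was the only one of them with a positive difference. The count of Adh4 per count of Adh1 was 0.208 and 0.162 in DBA/2J and 0.068 and 0.0784 in C57BL/6J. This ratio was 2.53-fold higher in DBA/2J. Its groups could not overlap, since Adh4 was higher and Adh1 lower in both DBA/2J libraries. A two-sided exact permutation test gave p = 0.333, the smallest that 2 libraries against 2 allow. Summed over the 4 genes, levels were 1721, 1609, 2208 and 1994 CPM, a total 1.26-fold higher in C57BL/6J with groups that did not overlap (exact permutation p = 0.333). Of the 10 tested genes starting within 250 kb of the Adh4 start, 1 was called, beside 18.2% of all tested genes. It was the clone-named gene 4930579F01Rik, with 20, 20, 6 and 3 counts (log2 difference 2.05 ± 0.51, edgeR adjusted p = 0.0452). That call was lost without DBA/2J replicate 1 or replicate 2, as were most calls over all genes, and also without C57BL/6J replicate 2. Adh6b, within the block, had 19, 12, 4 and 6 counts and a difference of 1.55. Gm16559 had 0.42, 0610031O16Rik 0.09 and Adh6-ps1 -0.30. Eif4e and Metap1, on the far side of Adh5, had differences of -0.23 and -0.09. None of these was called.

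Aldh1a1 encodes a cytosolic enzyme that oxidises retinal to retinoic acid and also acts on acetaldehyde and lipid aldehydes (chr19:20601961-20643462, plus strand). It had 99193, 108538, 58356 and 71910 counts, or 2056, 1962, 1197 and 1441 CPM. Both DBA/2J libraries were above both C57BL/6J libraries, with means of 2009 ± 66.6 and 1319 ± 172 CPM. The log2 difference was 0.61 ± 0.15 (95% interval 0.23 to 0.98, edgeR adjusted p = 0.0449). The call lay close to the threshold: it was lost without C57BL/6J replicate 1 and with the replicate number as a block (edgeR adjusted p = 0.0638). It was also lost without DBA/2J replicate 1 or replicate 2, as were most calls over all genes. The difference stayed between 0.475 and 0.745 in the fits that left out 1 library.

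Aldh1a7 is the nearest relative of Aldh1a1 and lies beside it on the other strand, at chr19:20692953-20727562, so that both fall within 125.6 kb. Its counts were 11735, 12828, 11688 and 15162, or 243, 232, 240 and 304 CPM. C57BL/6J replicate 2 was higher than the other libraries, which were close to each other, so the strains overlapped. The log2 difference was -0.19 with a 95% interval of -0.51 to 0.13 (edgeR adjusted p = 0.336). Without C57BL/6J replicate 1 it was -0.36 and called (adjusted p = 0.0293), and without C57BL/6J replicate 2 it was -0.015 and not called (0.922).

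The coding sequences of Aldh1a1 and Aldh1a7 align without gaps over 1506 bases and are identical at 1380 of them, or 91.6%, whereas other pairs of the aldehyde dehydrogenases share 55.5% to 70.1% and the alcohol dehydrogenase pairs 62.2% to 69.2%. Their first 100 coding bases are shown because they hold 7 differences, the median for windows of that length, which was also the length of the reads. Capitals mark bases that differ, the reference is GRCm38 with the GENCODE annotation, and both are spliced, from chr19:20602012-20610946 on the plus strand and chr19:20727029-20727512 on the minus strand.
Aldh1a1: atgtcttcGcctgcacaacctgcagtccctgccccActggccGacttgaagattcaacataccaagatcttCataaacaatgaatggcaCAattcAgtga
Aldh1a7: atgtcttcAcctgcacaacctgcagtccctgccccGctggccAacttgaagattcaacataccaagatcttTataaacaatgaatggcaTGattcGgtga
Of 1407 coding windows of 100 bases, 1 was identical between the genes, 61 differed at 1 base and the most divergent window differed at 21. The identical stretch, coding bases 757 to 856, is shown as the place where a read of this length has no letter to tell the genes apart.
Both genes: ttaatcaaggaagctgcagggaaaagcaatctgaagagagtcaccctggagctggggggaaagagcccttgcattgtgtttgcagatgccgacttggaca
Against all annotated transcripts, that 1 window was the only one of 1954 in Aldh1a1, and of 1967 in Aldh1a7, that recurred in another gene. How many reads went uncounted or to the wrong copy was not tested.

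Counts of Aldh1a1 per count of Aldh1a7 were 8.45 and 8.46 in DBA/2J and 4.99 and 4.74 in C57BL/6J. The ratio thus varied little within a strain and was 1.74-fold higher in DBA/2J (8.46 ± 0.00585 against 4.87 ± 0.177, SD, n = 2; exact permutation p = 0.333, the smallest possible). With the counts of both genes summed into 1, the log2 difference was 0.50 and not called (edgeR adjusted p = 0.0833). Of the 3 tested genes starting within 250 kb of the Aldh1a1 start, 1 was called, beside 18.2% of all tested genes. It was 1500015L24Rik, with 29, 27, 2 and 6 counts (log2 difference 2.71 ± 0.54, edgeR adjusted p = 0.0254). The call of 1500015L24Rik was lost without DBA/2J replicate 1 or replicate 2, as were most calls over all genes. Anxa1, the next gene beyond it, had a difference of 0.32 and was not called.

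**Figure D2:**
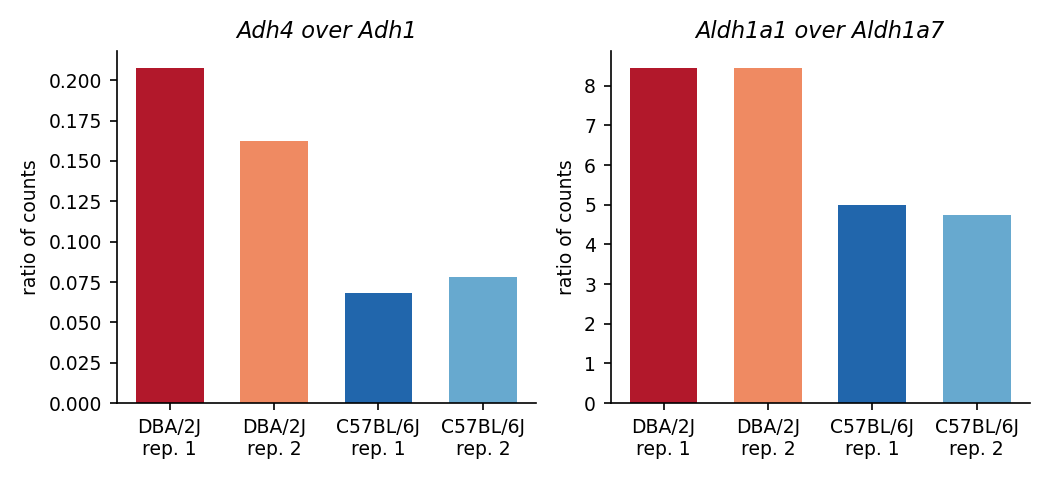
Ratio of counts in each library (bars from 0) for Adh4 over Adh1 and for Aldh1a1 over Aldh1a7. Adh4 over Adh1 was 0.208 and 0.162 in DBA/2J and 0.068 and 0.0784 in C57BL/6J, and Aldh1a1 over Aldh1a7 was 8.45 and 8.46, then 4.99 and 4.74.

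The starts of Aldh1a1 and Aldh1a7 also resemble each other, and the windows are shown so that the letters in which they differ can be seen beside the change in their ratio. Each runs from 140 bases before the start through its first 20 bases (RefSeq, GRCm38), at chr19:20601828-20601987 on the plus strand and chr19:20727537-20727696 on the minus strand. Capitals mark letters that differ or have no partner in the alignment.
Aldh1a1: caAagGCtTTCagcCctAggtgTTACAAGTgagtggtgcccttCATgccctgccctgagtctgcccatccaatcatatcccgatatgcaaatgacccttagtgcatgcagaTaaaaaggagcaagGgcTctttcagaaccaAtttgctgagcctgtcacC
Aldh1a7: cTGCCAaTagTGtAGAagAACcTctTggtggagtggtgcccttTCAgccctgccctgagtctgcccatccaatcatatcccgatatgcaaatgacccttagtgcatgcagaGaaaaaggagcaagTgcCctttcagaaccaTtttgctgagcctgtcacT
Of 152 aligned bases 136 were identical, or 89.5%, and the longest identical run was 65 bases, from position -94 in both. The substitutions after that run were T-29G, G-15T, T-12C, A2T and C20T (the Aldh1a1 base first, positions counted from the first transcribed base). The identical run holds CCAAT at -72 in both genes.

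Aldh2 encodes the mitochondrial enzyme that removes most acetaldehyde (chr5:121566027-121593824, minus strand). It had 96938, 97609, 95673 and 103863 counts, or 2009, 1764, 1963 and 2081 CPM. The strains overlapped, with means of 1887 ± 173 and 2022 ± 83.4 CPM and a log2 difference of -0.10 whose 95% interval ran from -0.46 to 0.27 (edgeR adjusted p = 0.67). Exons of Gm42879 on the other strand overlap 130 bases of its exons (2.54%), and that gene had 11 to 25 counts.

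Aldh1b1, a second mitochondrial enzyme that accepts acetaldehyde, lies at chr4:45799022-45804604 on the plus strand. It had 5059, 4678, 3122 and 4286 counts, or 105, 84.6, 64.1 and 85.9 CPM. The strains overlapped, with C57BL/6J replicate 1 lowest, and the log2 difference was 0.34 (95% interval -0.09 to 0.76, edgeR adjusted p = 0.223). Without C57BL/6J replicate 2 it was 0.56 and called (adjusted p = 0.0144). It was 0.14 without C57BL/6J replicate 1 (adjusted p = 0.483) and 0.16 without DBA/2J replicate 1 (0.718), and not called.

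Aldh3a2 encodes the fatty aldehyde dehydrogenase of the endoplasmic reticulum and peroxisome (chr11:61223417-61267464, minus strand). Its counts of 10597, 12615, 13096 and 17652 gave 220, 228, 269 and 354 CPM. Both DBA/2J libraries were below both C57BL/6J libraries, which differed from each other more than the DBA/2J pair did. The log2 difference of -0.475 ± 0.14 (95% interval -0.83 to -0.12) was not called (edgeR adjusted p = 0.0721). DESeq2 called it (-0.48, adjusted p = 0.0173), as did edgeR without C57BL/6J replicate 1 (-0.665, adjusted p = 0.00193). Without C57BL/6J replicate 2 the difference was -0.265 and not called (adjusted p = 0.0673).

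Cat encodes catalase, the peroxisomal enzyme that splits hydrogen peroxide and can use it to oxidise ethanol (chr2:103453849-103485160, minus strand). It was the most abundant of the 10 mRNAs, with 213994, 238136, 154595 and 178318 counts, or 4436, 4305, 3172 and 3573 CPM. Catalase alone took 0.445% and 0.453% of all counts in DBA/2J and 0.307% and 0.349% in C57BL/6J. The groups did not overlap and the DBA/2J mean was 1.30-fold the C57BL/6J mean (4370 ± 92.7 against 3372 ± 283 CPM), but the log2 difference of 0.37 ± 0.18 had a 95% interval of -0.08 to 0.83 and was not called by edgeR (adjusted p = 0.211). DESeq2 called it (0.37, adjusted p = 0.0114).

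**Figure D3:**
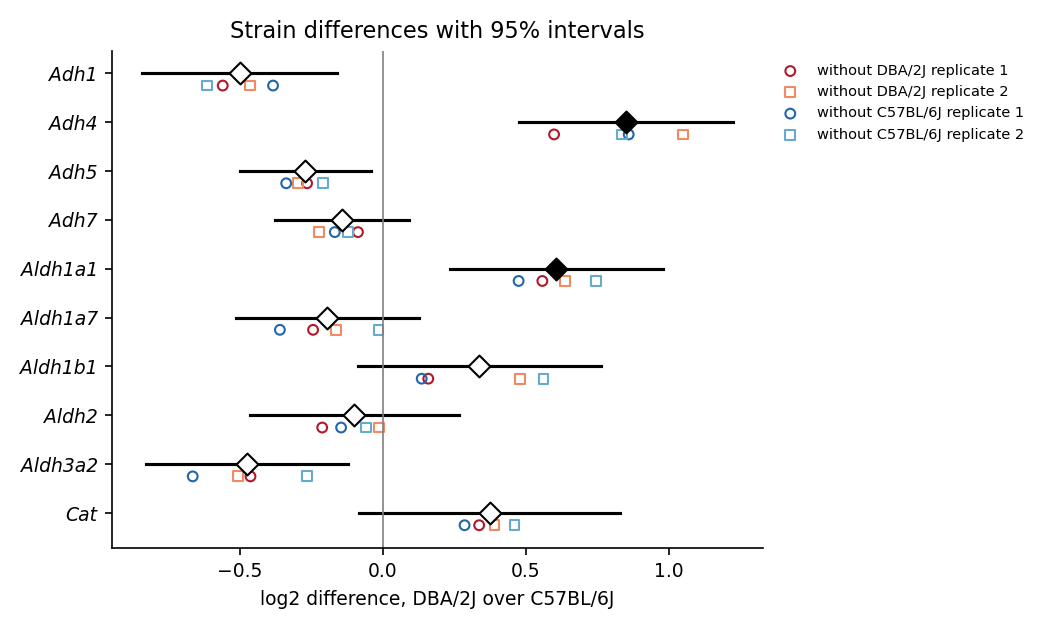
Log2 differences, DBA/2J over C57BL/6J, with 95% intervals from edgeR (diamonds, filled where called) and, as small symbols, the differences with 1 library left out. Adh4 (0.85) and Aldh1a1 (0.61) are filled, and no gene's difference crosses 0 when a library is left out, although Aldh1a7 and Aldh2 come within 0.02 of it.

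Between replicates of C57BL/6J the 10 genes differed by more than between replicates of DBA/2J, except for Adh4, Adh7 and Aldh2. Relative to C57BL/6J replicate 1, replicate 2 was higher by 0.27 for Aldh1a1, 0.34 for Aldh1a7, 0.42 for Aldh1b1 and 0.40 for Aldh3a2 on the log2 scale. Adh1 was lower in replicate 2, at -0.23. Replicate 1 is the library with the high acute phase level, and its part in these differences was not tested. Leaving it out, edgeR called Adh5, Aldh1a7 and Aldh3a2 lower and Adh4 higher in DBA/2J, but then 24.2% of all tested genes were called.

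Levels were compared between the genes per kilobase of their main annotated transcript, as CPM per kilobase. In DBA/2J the order of mean levels was Cat at 1673, Aldh1a1 at 979, Adh1 at 728, Aldh2 at 488, Adh5 at 217, Adh4 at 154, Aldh1a7 at 115, Aldh3a2 at 77.4, Aldh1b1 at 41.2 and Adh7 at 8.20. No neighbours in that order overlapped between the DBA/2J libraries. In C57BL/6J it was Cat at 1291, Adh1 at 1031, Aldh1a1 at 643, Aldh2 at 523, Adh5 at 262, Aldh1a7 at 132, Aldh3a2 at 108, Adh4 at 85.1, Aldh1b1 at 32.6 and Adh7 at 9.05, and of the neighbours in the order Aldh1a7 and Aldh3a2 overlapped. Adh1 and Aldh1a1 thus changed places between the strains, and Adh4 stood above Aldh1a7 and Aldh3a2 in DBA/2J and below both in C57BL/6J. These places depend in part on the length used. Per kilobase of all exons in the count table, Adh4 had means of 139.2 in DBA/2J and 77.2 in C57BL/6J and stood above Aldh3a2, at 39.8 and 55.4, in both strains. On that scale the C57BL/6J libraries of Adh1 (744 and 633) and Aldh1a1 (583 and 702) overlapped. For Adh5, the exons in the count table add up to 5408 bases but its main transcript to 1604, and its means per kilobase of all exons were 64.5 and 77.8.

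Within the alcohol dehydrogenases, on that per-transcript scale, Adh4 made up 15.4% and 12.2% of the summed level in DBA/2J and 5.89% and 6.42% in C57BL/6J. The share of Adh1 was 65.3% and 66.3% in DBA/2J against 76.3% and 72.1%. Adh5 held 17.2% to 20.8%, with overlapping strains, and Adh7 less than 1% in each library. Within the aldehyde dehydrogenases, Aldh1a1 held 56.9% and 58.3% in DBA/2J and 43.9% and 45.4% in C57BL/6J, and Aldh2 held 29.5% and 27.8% against 38.2% and 34.8%. Neither pair overlapped between the strains, and each exact permutation p was 0.333. Shares of a total are bound together, so these are not separate results. A higher Aldh1a1 level lowers the share of Aldh2, whose own CPM overlapped between the strains. The 10 genes together took 1.08% and 1.07% of all counts in DBA/2J and 0.883% and 0.959% in C57BL/6J.

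**Figure D4:**
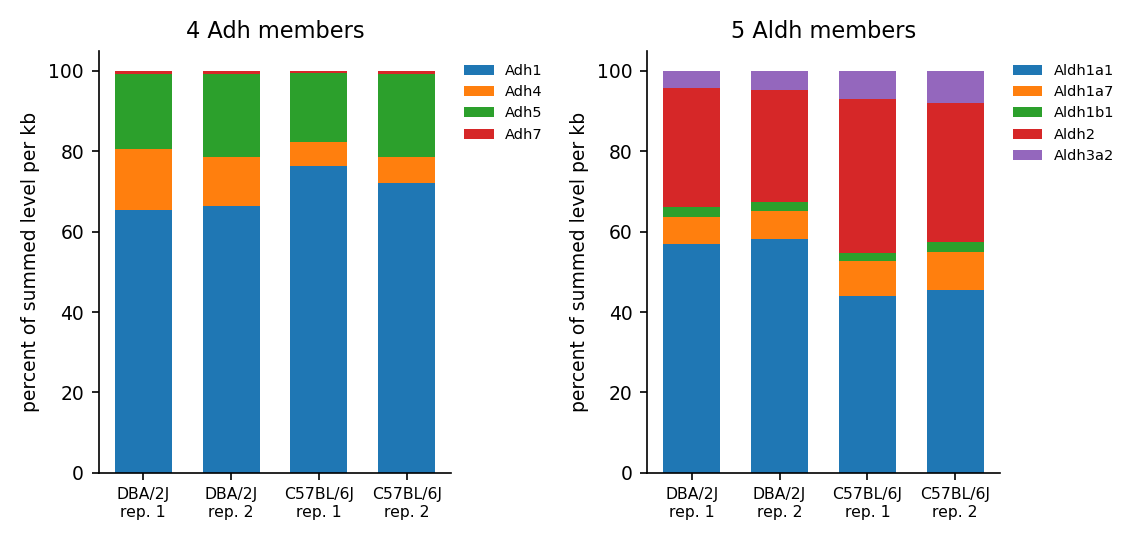
Shares of the summed level per kilobase of transcript within the 4 alcohol dehydrogenases (left) and the 5 aldehyde dehydrogenases (right), 1 stacked bar per library. The band of Adh4 is 15.4% and 12.2% in the DBA/2J bars and 5.89% and 6.42% in the C57BL/6J bars, and that of Aldh1a1 is 56.9% and 58.3% against 43.9% and 45.4%.

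Counting every gene symbol of the 2 dehydrogenase families, with Adhfe1, gave 29 genes, of which 25 were tested, 4 called higher and 2 lower, near the 18.2% called over all genes. Beside Adh4 and Aldh1a1, the genes called higher were Aldh1a3, another retinal dehydrogenase, and Aldh3b1, which acts on fatty aldehydes. Aldh1a3 had 75, 88, 15 and 19 counts (log2 difference 2.18 ± 0.31, edgeR adjusted p = 0.0102) and Aldh3b1 had 257, 279, 144 and 140 (0.85 ± 0.18, adjusted p = 0.0278). Lower in DBA/2J were Aldh16a1, with 2506, 2878, 4004 and 4359 counts (-0.705 ± 0.08, adjusted p = 0.00479), and Adhfe1, a hydroxyacid-oxoacid transhydrogenase, with 3920, 4481, 5724 and 6630 (-0.625 ± 0.09, adjusted p = 0.0105). Each of these 4 calls was lost without DBA/2J replicate 1 and without DBA/2J replicate 2, as were most calls over all genes. Adh6a had 0 counts in both DBA/2J libraries and 6 in each C57BL/6J library, too few to be tested.

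Other enzymes of ethanol and acetate were given from a list of 5, all tested. Of these, 0 were higher and 1 lower in DBA/2J, beside 9.29% and 8.87% of all tested genes. Cyp2e1, named for its role in ethanol oxidation and not for its value, had 6073, 5367, 6361 and 5984 CPM and overlapped between the strains (log2 difference -0.11, edgeR adjusted p = 0.762). Por, the reductase that passes electrons to cytochromes P450, had 215, 231, 411 and 430 CPM, a log2 difference of -0.915 ± 0.09 (adjusted p = 0.00324). That call was lost without DBA/2J replicate 1 or replicate 2, as were most calls over all genes.

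Of 11 enzymes that make hydrogen peroxide, the substrate of catalase, 10 were tested. Their log2 differences had a median of -0.17, with 4 above 0 and 6 below. Called higher in DBA/2J were 2, Acox2 and Hao2, beside 9.29% of all tested genes. Acox2, which acts on branched chains and bile acid intermediates, had 360, 321, 198 and 233 CPM (log2 difference 0.66 ± 0.12, edgeR adjusted p = 0.0181). Hao2, a hydroxyacid oxidase, had 22, 22, 3 and 2 counts (adjusted p = 0.0166). Both DBA/2J libraries lay above both C57BL/6J libraries for each gene. Neither call held when DBA/2J replicate 1 or replicate 2 was left out, as most calls over all genes did not.

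The other enzymes that remove hydrogen peroxide and superoxide, 14 glutathione peroxidases, peroxiredoxins and superoxide dismutases, were all tested, with 0 higher and 8 lower in DBA/2J, where 9.29% and 8.87% of all tested genes were called. Their median log2 difference was -0.35, beside 0.37 for Cat and 0.01 over all genes. Prdx5 had 188, 178, 284 and 282 CPM (-0.63 ± 0.08, edgeR adjusted p = 0.00744). Gpx3, at 1.95 to 4.47 CPM, had a log2 difference of -1.02 (edgeR adjusted p = 0.0254). Gpx7, at 1.02 to 3.15 CPM, had one of -1.33 (0.0293), and Gpx4 one of -0.35 (0.0298). Of the 14, 6 were not called. Among them was Gpx1, named for having the highest CPM of the 14 (log2 difference -0.24, edgeR adjusted p = 0.308). Leaving out either DBA/2J library left 0 of the 14 called, in fits that called 1.79% and 1.92% of all genes. With scaling by library totals alone, which moved the median of all genes from 0.01 to 0.09, 4 were called.

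Of 26 genes that handle retinoids, 22 were tested, with 2 higher and 0 lower, near the 9.29% called higher over all genes. Rdh9, a retinol dehydrogenase of the short-chain family, had 580, 511, 186 and 158 counts (log2 difference 1.605 ± 0.20, edgeR adjusted p = 0.00704). Its call was lost without DBA/2J replicate 1 or replicate 2, as were most calls over all genes. Cyp26a1, which breaks down retinoic acid, had 914, 6533, 299 and 399 counts (3.28 ± 0.83, adjusted p = 0.0466). Much of that difference lay in DBA/2J replicate 2, and without it the call was lost, as were most calls over all genes. Cyp26b1 and Lrat, named after their values were seen, were also highest in that library, with 100, 605, 71 and 35 counts and 278, 807, 424 and 217, and neither was called. Aldh1a1 was at 2056 CPM in DBA/2J replicate 1 and 1962 CPM in replicate 2, and a link between it and these genes was not tested. Of 10 aldehyde and ketone reductases, 0 were higher and 1 lower, beside 9.29% and 8.87% of all tested genes. The 1 was the carbonyl reductase Cbr1 (-0.69 ± 0.09, edgeR adjusted p = 0.00758). Its call, too, was lost without DBA/2J replicate 1 or replicate 2.

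**Figure D5:**
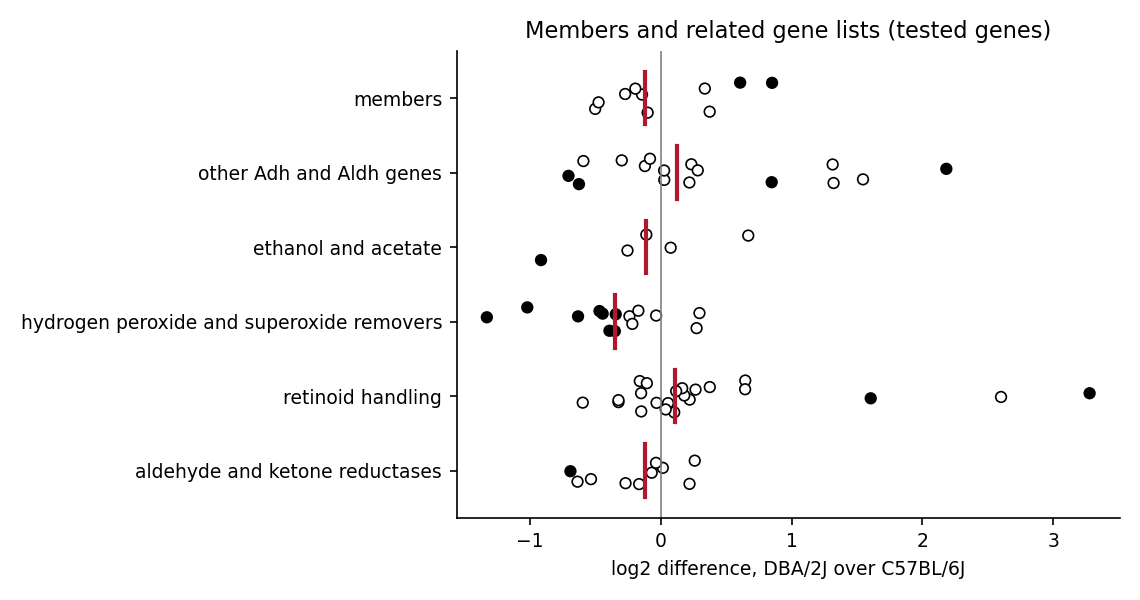
Log2 differences of the tested genes in each list shown, 1 point per gene (filled where called by edgeR), with the list median as a vertical bar. The 8 filled points among the removers of hydrogen peroxide and superoxide all lie below 0, whereas the 2 filled points among the 10 enzymes, Adh4 and Aldh1a1, lie above it.

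Promoter windows of 300 bases (250 before the start and 50 after, RefSeq, GRCm38) were found for 9 of the 10 genes, all but Aldh2. Their CpG counts ran from 1 to 26 without a break into groups. Adh5 had 65% GC with 26 CpG and 3 copies of the GC box GGGCGG, which 35.7% of all windows hold on either strand, Aldh3a2 had 61.7% with 21 CpG, and Cat had 62% with 11. Aldh1b1 had 54.7% with 7 and Adh1 45.3% with 6. Adh4, Aldh1a1 and Aldh1a7 each held 1 CpG, at 42.3%, 47% and 44% GC, and Adh7 had 39.3% with 3, beside medians of 52.7% and 7 over all 32851 windows. Cat held 4 copies of CCAAT, and the letters TATAAA, found in 13.6% of all windows, were in those of Adh7 and Aldh1a7, more than 200 bases before the start.

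Hepatocyte markers had summed levels of 82954, 78959, 90503 and 80821 CPM and 0 of 5 were called, so the labelled tissue carried its defining markers in each library. Markers of hepatocytes near the central vein, the zone where Cyp2e1 is made, summed to 9470, 8311, 10075 and 9782 CPM with 2 of 8 lower in DBA/2J, Glul (-0.46) and Oat (-0.96). Those near the portal vein summed to 9629, 9065, 7641 and 9769 CPM with 0 of 7 called. Stellate cells, which store retinoids, had markers at 191, 240, 153 and 104 CPM, with 1 of 6 higher, Reln. Cholangiocyte markers summed to 23.9, 24.6, 76.5 and 49.8 CPM, mostly from Spp1 (13.6, 14.4, 61.8 and 40.4 CPM), the 1 of 5 that was lower. The other markers of these cells went both ways. Krt19 and Krt7 had log2 differences of 0.56 and 0.41, Epcam and Sox9 of -0.565 and -0.42, and none was called. Red cell markers summed to 344, 294, 184 and 221 CPM, with 2 of 6 higher, Hba-a1 and Alas2, and 1 lower, Hba-a2. Endothelial markers were at 131, 156, 139.3 and 114 CPM, with Stab2 higher and Lyve1 lower of 6, and macrophage markers at 130 to 168 CPM, with 1 of 7 lower, Marco. Neutrophil markers were at 6.11 CPM in C57BL/6J replicate 1 and 0.261 to 0.601 CPM in the other libraries. Of the 5, 3 had too few counts to be tested and the other 2 were not called. Beside these counts of called markers, 18.2% of all tested genes were called. Except for Hba-a2, each marker call named here was lost when DBA/2J replicate 1 or replicate 2 was left out, as were most calls over all genes. The part of these in the values of the 10 enzymes was not tested.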

How the data were processed

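Liver RNA of 4 mice was measured as RNA-seq counts per gene. The deposited values were whole-number counts, which the authors made, per the file headers, with featureCounts 2.0.1 by exon and gene name, against Ensembl release 88 of GRCm38. The headers carry a paired-end option although the labels state single-end reads of 100 nucleotides, and no option for strand or for reads with several alignments. The submitters' processing notes name STAR 2.4.0g1 and featureCounts 1.5.2. Reads of both strains met a reference derived from C57BL/6J, so DBA/2J reads that differ from it can be lost or misplaced. 0 rows lacked a gene name. Libraries were taken as separate mice, since the design text counts 2 in each strain. Where that is not so, p-values measure technical spread.

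Counts were tested with edgeR 4.0.16 in R 4.3.3 (quasi-likelihood F test, legacy=FALSE, TMM scaling, strain as the only term). filterByExpr with a minimum count of 10 left 15647 genes, and p-values were adjusted by Benjamini-Hochberg over all of them and called below 0.05. Standard errors and 95% intervals come from the F statistic, and CPM from TMM-scaled totals. Alternatives were DESeq2 1.42.0, other scalings, no filter, the legacy fit, each library left out, a replicate block and, for Aldh1a1 and Aldh1a7, summed counts. A fit with 1 library left in a strain assumes that it varies like the others. The procedure was tested on simulated data that had 1 spread for all genes. Recovery was required there only for planted differences larger than those of the 10 enzymes. Ratios and sums used a two-sided exact permutation test over libraries. Floors cover counting error only. Coding sequences came from GENCODE M21 (GRCm38), aligned with Biopython 1.88. Motifs were searched on both strands.

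The genes and lists were chosen with earlier results of these data known. Named genes were the 10 enzymes, up to 4 called genes of each list by lowest adjusted p, and tested genes within 250 kb of an enzyme that was called. Others are marked. A result that this rule would name among the enzymes that make hydrogen peroxide is not reported here.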

Additional observations from a re-analysis of the deposited data

How the results depend on the processing

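Over all genes, 2842 were called. That count was 1516 with no low-count filter, where more genes were tested, and 292 to 4905 when 1 library was left out, with both DBA/2J omissions at the low end (292 and 313). DESeq2 called 3300, and library totals in place of TMM turned 1454 higher and 1388 lower into 1924 and 1024. The cause of the spread was not tested.

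Of the 10 enzymes, 2 were called higher. The count was 1 with relative log expression scaling, 0 with no filter and 0 to 3 with 1 library left out. None was called lower (0), whereas DESeq2 called 2, Adh1 and Aldh3a2, and fits without 1 library called 0 to 3. Without DBA/2J replicate 1, 0 of the 10 were called in either direction. In the wider families, 4 were higher (2 with no filter, 0 to 7 with a library left out) and 2 lower (4 with DESeq2, 0 to 5 with a library left out). The 8 removers of hydrogen peroxide and superoxide called lower became 4 with library totals alone, 4 with no filter and 0 to 8 with a library left out. These alternatives for the removers were added after seeing the data.

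Replicate numbers were entered as a block, although they share only a number: the deviations of the replicates numbered 1 from their strain means correlated at -0.064 across 15647 genes. With the block, 2395 genes, 1 enzyme higher (Adh4) and 0 lower, 2 of the wider families higher and 2 lower, and 5 removers were called.

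Single differences kept their sign throughout for each enzyme, with the exception of Aldh1a7, which took the summed value of 0.50 (edgeR adjusted p = 0.0833) when pooled with Aldh1a1. Relative to the values reported, 94 alternative values of the 10 enzymes kept their side of the threshold, 8 passed it and 9 no longer did. With no filter the adjusted p was 0.0511 for Adh4 and 0.0522 for Aldh1a1, and with relative log expression scaling it was 0.0505 for Aldh1a1. Depth did not limit these genes, whose lowest count in a library was 1288 (Adh7).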
